A study of Mus musculus with 36 samples.

Results

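The genes described here are 10 that make, salvage or clear precursors of nicotinamide adenine dinucleotide (NAD): Nmrk1, Nmrk2, Nampt, Naprt, Nmnat1, Nmnat2, Nmnat3, Nadsyn1, Qprt and Nnmt. They were taken by symbol from the 53379 genes of the deposited count tables, and all 10 were found. The set was chosen by these enzymes' place in the pathway and by measured values, the rise of Nmrk2 between control kidneys and kidney tumors of these mice. Kidney tumors against control kidneys are thus given below as a description. That comparison was fitted with the others, and nothing is read from its calls. Adult tissue came from mice with Cre under the Sglt2 promoter, which is active in the proximal tubule. In 6 of them (mouse 1 to mouse 6), Cre switches on a conditional ASPSCR1-TFE3 LSL/+ allele, and these mice gave 11 kidney tumors (a pair from each mouse except mouse 5), 4 non-transformed kidneys (mice 1, 3, 4 and 5), 4 retro-orbital tumors (mice 2, 3, 5 and 6) and 3 brain tumors (mice 1, 2 and 4). A further 3 mice of genotype Sglt2-Cre, without the fusion allele, gave 6 control kidneys. In the Pax8-Cre model, Pax8 being a renal epithelial factor, 5 dysmorphic kidneys came from Pax8-Cre; ASPSCR1-TFE3 LSL/+ fetuses, and 3 normal embryonic kidneys from fetuses labelled Pax8-Cre (the design text also allows the fusion allele without Cre). Ages were not given for either model, and whether the tumors outside the kidney arose there was not stated.

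Cells keep their NAD pool by several routes. Nicotinamide is salvaged by NAMPT to nicotinamide mononucleotide, nicotinamide riboside is phosphorylated to the same mononucleotide by the riboside kinases NMRK1 and NMRK2, nicotinic acid enters through NAPRT, and quinolinate from tryptophan enters through QPRT. The mononucleotides are adenylated by NMNAT1 in the nucleus, NMNAT2 in the cytoplasm and Golgi, and NMNAT3 in mitochondria. NADSYN1 amidates the nicotinic acid form to NAD, and NNMT methylates nicotinamide so that it leaves the pool. Nmrk2 is best known as a gene of skeletal and cardiac muscle, whereas Nmrk1 is broadly expressed and the proximal tubule makes NAD from tryptophan.

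All tissue was formalin-fixed and paraffin-embedded, and totals ranged from 80205573 to 121415057 counts per library. Libraries of the same mouse and group were summed, which left 28 samples, and n below is the number of mice or fetuses. Levels are counts scaled to a common library total after TMM normalization (CPM). Gpnmb, a lysosomal glycoprotein gene and a known target of TFE3, spanned 1.54 to 2.46 CPM in control kidneys, 111 to 447 in non-transformed kidneys, 2826 to 7324 in kidney tumors, 2829 to 4264 in brain tumors and 3034 to 4754 in retro-orbital tumors, so tumor libraries matched their labels while every non-transformed kidney also stood above every control. The summed level of 10 proximal tubule markers was 13900 to 14750 CPM in control kidneys and 13840 to 18760 in non-transformed kidneys. It was 3446, 769, 816, 9686, 12200 and 746 CPM in the kidney tumors of mice 1 to 6, so tubule transcripts remained high in the tumors of mice 4 and 5. Skeletal muscle markers, 12 genes, summed to 8536 to 23120 CPM in dysmorphic fetal kidneys against 3406 to 3987 in control fetal kidneys and at most 436 in any adult sample. In bulk tissue, fewer cells of a type and less RNA per cell cannot be told apart.

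The upstream sequences of both riboside kinase genes are shown first because these genes carry the main pattern. Nmrk2 (ENSMUSG00000004939.7) lies on the minus strand of chromosome 10 at 81198170 to 81202051, and Nmrk1 (ENSMUSG00000037847.13) on the plus strand of chromosome 19 at 18631950 to 18652428, both in GRCm38 with the GENCODE M21 annotation. The bases just before each annotated start, from the RefSeq promoter table of GRCm38.p6, read 5′ to 3′ as follows. Capitals mark GGGCGG and TATAAA in Nmrk2 and, in Nmrk1, the reverse complement of CCAAT.
Nmrk2, chr10:81202052-81202287, minus strand: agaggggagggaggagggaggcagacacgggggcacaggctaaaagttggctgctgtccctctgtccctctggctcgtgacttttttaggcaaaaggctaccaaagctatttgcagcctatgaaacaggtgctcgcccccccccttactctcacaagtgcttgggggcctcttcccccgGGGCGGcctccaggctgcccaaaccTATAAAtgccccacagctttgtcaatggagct
Nmrk1, chr19:18631766-18631949, plus strand: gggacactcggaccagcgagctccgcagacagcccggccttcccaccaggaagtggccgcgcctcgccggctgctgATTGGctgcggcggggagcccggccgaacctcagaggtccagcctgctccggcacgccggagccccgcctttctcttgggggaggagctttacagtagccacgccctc

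Promoter windows of 300 bases, 250 before to 50 after the RefSeq start, were given for 8 of the 10 members, with none for Naprt and Nnmt. Among them, Nmrk2 was the 1 member with TATAAA, which 13.6% of all 32851 windows held on either strand. GGGCGG was in 5 of the 8 and in 35.7% of all windows, and CCAAT in 2 of the 8 and in 37.4% of all. Of the letters bound by TFE3 and its relatives, CACGTG was in 7.15% of all windows and CATGTG in 14.2%, and neither was in any of the 8 windows. AAGGTCA, the letters of estrogen-related receptor sites, was in the window of Nmnat3 and in 4.72% of all. The Nmrk2 window held 8 CpG dinucleotides at 60.7% GC, the Nmrk1 window 23 at 67.3% and the Nampt window 36 at 76.3%, against medians of 7 and 52.7% over all windows. The Nmrk2 window was thus near the median in CpG and the other 2 windows above it. These matches describe letters, and no binding was measured. The letters marked in capitals above were added to the search after the sequences were seen. Their presence in Nmrk2 and Nmrk1 is therefore a description only.

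Nmrk2 RNA was all but missing from control kidneys and present in every tumor. The 3 control mice held 2, 0 and 0 counts in all. Kidney tumors of mice 1 to 6 held 1.92, 30.8, 12.5, 106, 25.1 and 2.14 CPM. Every kidney tumor stood above every control, and the tumors themselves spanned a wide range with mouse 4 far above the rest. Retro-orbital tumors of mice 2, 3, 5 and 6 held 50.7, 196, 269 and 84.3 CPM, and brain tumors of mice 1, 2 and 4 held 5.81, 39.3 and 431 CPM. In the plot of riboside kinase levels by animal, Nmrk2 of all 13 tumor samples lay above the control kidneys, while the 3 tumor groups overlapped with each other. Against kidney tumors the log2 difference was 2.33 (SE 0.99, adjusted p = 0.131) in retro-orbital and 2.47 (SE 1.36, adjusted p = 0.271) in brain tumors, neither called, and without the brain tumor of mouse 4 the latter was -0.36.

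Because the controls were at or below 3 counts, the size of the rise is a bound against that floor, which averaged 0.0135 CPM per control mouse and covers counting error only. Nmrk2 was at least 2200-fold higher in kidney tumors (29.7 ± 39.1 CPM, SD, n = 6), at least 11100-fold higher in retro-orbital tumors (150 ± 101 CPM, n = 4) and at least 11800-fold higher in brain tumors (159 ± 236 CPM, n = 3). Without the highest animal of each group the bounds were 1070, 8180 and 1670, so mouse 4 carried most of the brain tumor value. The lowest kidney tumor mouse, with its tumors summed, and the lowest retro-orbital and brain tumor stood 136, 3590 and 412 times above the floor.

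**Figure D1:**
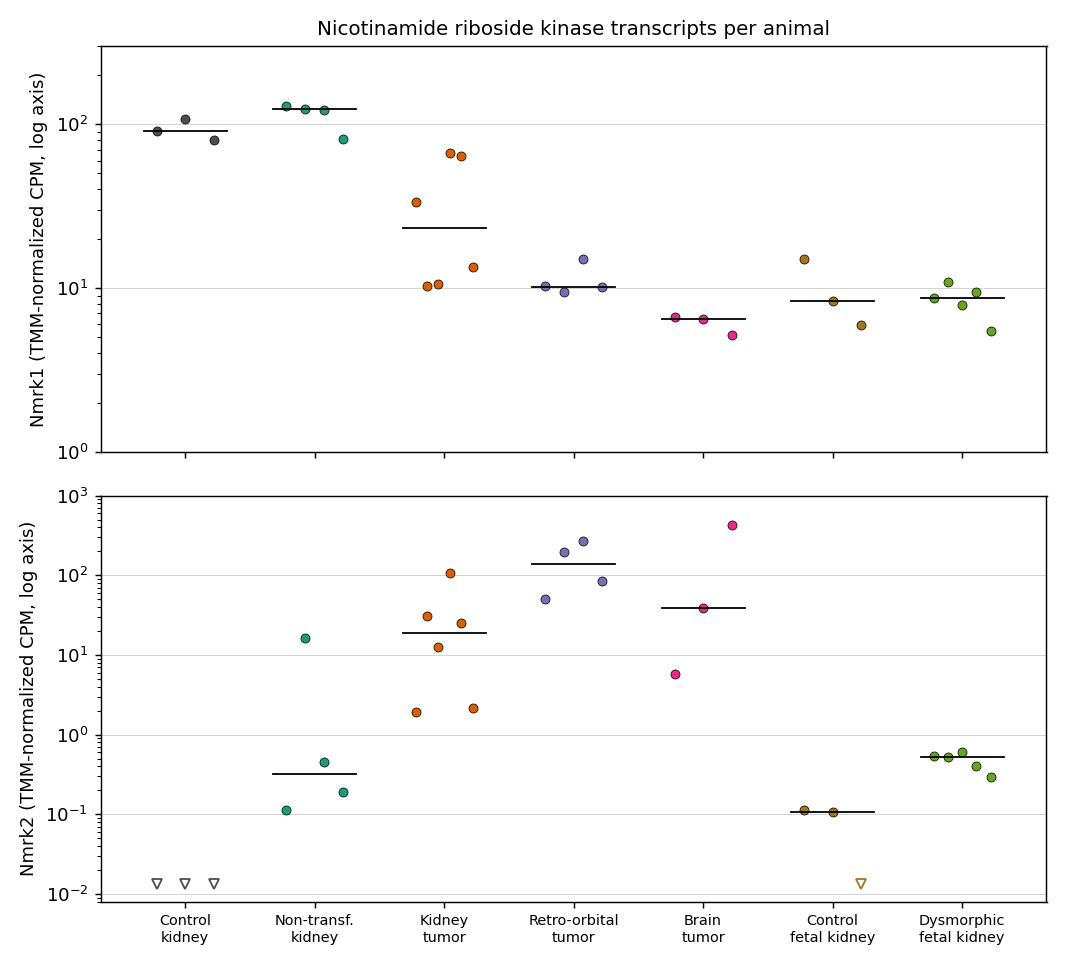
Levels of Nmrk1 (top) and Nmrk2 (bottom) in CPM on log axes for each mouse or fetus in the 7 groups, with a bar at the group median and open triangles at the floor for animals with 3 counts or fewer. Nmrk2 was at or below the floor in the control kidneys and spanned 1.92 to 431 CPM in the tumors, while Nmrk1 went from 80.1 to 107.5 CPM in control kidneys to 5.20 to 6.66 in brain tumors.

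Non-transformed kidneys of the fusion mice held Nmrk2 as well. The levels were 0.11, 16.2, 0.46 and 0.19 CPM in mice 1, 3, 4 and 5, each above every control kidney. The group mean was at least 315-fold above the floor, and at least 18.8-fold without mouse 3, whose level lay within the range of the kidney tumors. Its tubule marker sum stood with the other non-transformed kidneys, none of which fell below 13840 CPM. Gpnmb was also highest in mouse 3, and the order of Gpnmb (111, 447, 367 and 126 CPM in mice 1, 3, 4 and 5) was that of Nmrk2. The share of tumor cells in these kidneys was not measured. By edgeR's quasi-likelihood test the difference from control kidneys was not called (adjusted p = 0.231), and 0.00952% of all genes tested were called in that comparison. Kidney tumors against non-transformed kidneys gave a log2 difference of 2.74 (SE 1.62, adjusted p = 0.257) for Nmrk2. Without the non-transformed kidney of mouse 3 that difference was 6.80 and was called (adjusted p = 0.0353), so this result turned on 1 library.

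Nmrk2 also differed between tumors of the same kidney tumor mouse. The library pairs read 2.39 and 1.39 CPM in mouse 1, 3.22 and 57.8 in mouse 2, 22.6 and 2.47 in mouse 3, 165 and 33.6 in mouse 4, and 1.70 and 2.47 in mouse 6. The higher library exceeded the lower by 1.45 to 18.0 times, so tumors of the same mouse could differ widely. In mouse 2, a female, the library with 57.8 CPM also held 13.6 CPM of Y-linked RNA and its pair 4.59, against 0.893 to 1.68 in kidney tumors of the other females and 297 to 655 in those of males. A control kidney library of control mouse 1, also female, held 4.88 CPM of Y-linked RNA against 0.0666 to 0.264 in the other 5, and it was the library with the only 2 Nmrk2 counts of the control kidneys. Without the kidney tumors of mouse 2 no called member lost its call. Nmrk1 differed by 1.07 to 3.20 times in the same pairs and by at most 1.14 times between control kidneys of a mouse. Nampt pairs differed by 1.01 to 1.49 times.

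Since Nmrk2 is a muscle gene, muscle transcripts were read in the same samples. The 12 skeletal muscle markers summed to 34.7 to 63.3 CPM in control kidneys and to 33.8 to 70.0 CPM in retro-orbital tumors, where Nmrk2 was at 50.7 to 269 CPM. The highest retro-orbital sum was thus close to the highest control sum. In kidney tumors of mice 1 to 6 the muscle sums were 35.4, 280, 31.0, 436, 70.5 and 28.7 CPM, and the 2 highest belonged to mice 2 and 4, which also had the 2 highest Nmrk2 levels. The higher library of each of these pairs was higher in both, with 486 CPM of muscle markers beside 57.8 of Nmrk2 in mouse 2 and 620 beside 165 in mouse 4. In the pairs of mice 1, 3 and 6 the order was the opposite, in mouse 3 with muscle markers at 19.1 CPM in the library with 22.6 CPM of Nmrk2 and at 41.5 in the library with 2.47. Brain tumors of mice 2 and 4 had muscle sums of 239 and 204 CPM. The 6 heart muscle markers summed to 3.23 to 4.20 CPM in control kidneys, 3.45 to 5.48 in non-transformed kidneys and 1.07 to 2.04 in retro-orbital tumors, below every control. In kidney tumors they spanned 2.08 to 31.2 CPM, highest in mice 4 (31.2) and 2 (22.2), and in brain tumors 2.54 to 8.26 CPM. Against non-transformed kidneys, 2 of the 6, Actc1 and Nppa, were called higher in kidney tumors, beside 12.1% of all genes, and 0 of the 12 skeletal markers were called. The part of muscle RNA in those libraries was not tested.

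Nmrk2 shares exon bases with the antisense gene Atcayos, and whether counting used strand was not stated. Atcayos spanned 0 to 0.53 CPM in all tumors, below Nmrk2 in each. In dysmorphic fetal kidneys it stood at 1.81 to 4.50 CPM, above Nmrk2 in every one of them, against 0.50 to 0.88 in control fetal kidneys. Atcay, a neuronal gene of the same locus, stood at 42.2 to 68.3 CPM in retro-orbital tumors and at most 0.01 CPM in control kidneys, and at 0.27, 39.5 and 4.22 CPM in the brain tumors of mice 1, 2 and 4, where Nmrk2 was at 5.81, 39.3 and 431. Kidney tumors held 0.12 to 1.01 CPM of Atcay except that of mouse 5, which held 22.0 beside 25.1 of Nmrk2.

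Nmrk1 took the opposite course. Control kidneys held 90.5, 107.5 and 80.1 CPM and non-transformed kidneys 129.8, 122.9, 122.8 and 80.8. Kidney tumors of mice 1 to 6 held 33.4, 10.3, 10.7, 66.4, 63.8 and 13.4 CPM, all below every control and every non-transformed kidney. Retro-orbital tumors held 10.2, 9.41, 15.1 and 10.2 CPM for mice 2, 3, 5 and 6, overlapping with the kidney tumors of mice 2, 3 and 6. Brain tumors held 6.66, 6.49 and 5.20 for mice 1, 2 and 4, below every other tumor. Against non-transformed kidneys the log2 difference of kidney tumors was -1.84 (SE 0.57) with an adjusted p of 0.0505, just outside the threshold. It was called under other scaling factors, with halved counts and by DESeq2, limma-voom and a joint fit (adjusted p from 0.00246 to 0.0473), and without the kidney tumor of mouse 4 or 5 (0.0284 and 0.0235). With mouse as a block (-1.70, adjusted p = 0.151), on the paired mice without it (0.115) and in females only (0.134) it was not called. Retro-orbital minus kidney tumors gave -1.58 (SE 0.61, adjusted p = 0.0991, and -0.62 with mouse as a block) and brain minus kidney tumors -2.40 (SE 0.75, adjusted p = 0.077), neither called in the main fit. Each was called under 2 of the alternative settings other than leaving out an animal. Against control kidneys the fitted log2 difference of kidney tumors was -1.51 (SE 0.62).

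The kidney tumors of mice 4 and 5, the 2 with the highest Nmrk1, also had the highest tubule marker sums, and the other 4 were lower in both. In the plot of marker relations, retro-orbital tumor mouse 5 had the highest Nmrk1 (15.1 CPM) and the highest tubule sum (1372 CPM, against 133 to 223 in the other 3) of its group. Control fetal kidneys, with tubule sums of 1177 to 1505 CPM, held 5.92 to 15.1 CPM of Nmrk1. The order was not shared in every group: the non-transformed kidney of mouse 5 had the lowest Nmrk1 of its group (80.8 CPM) and the highest tubule sum (18760 CPM), and the brain tumors of mice 1, 2 and 4 had tubule sums of 311, 437.5 and 767.5 CPM beside 6.66, 6.49 and 5.20 of Nmrk1. The part of tubule cell content in the Nmrk1 differences was not tested.

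**Figure D2:**
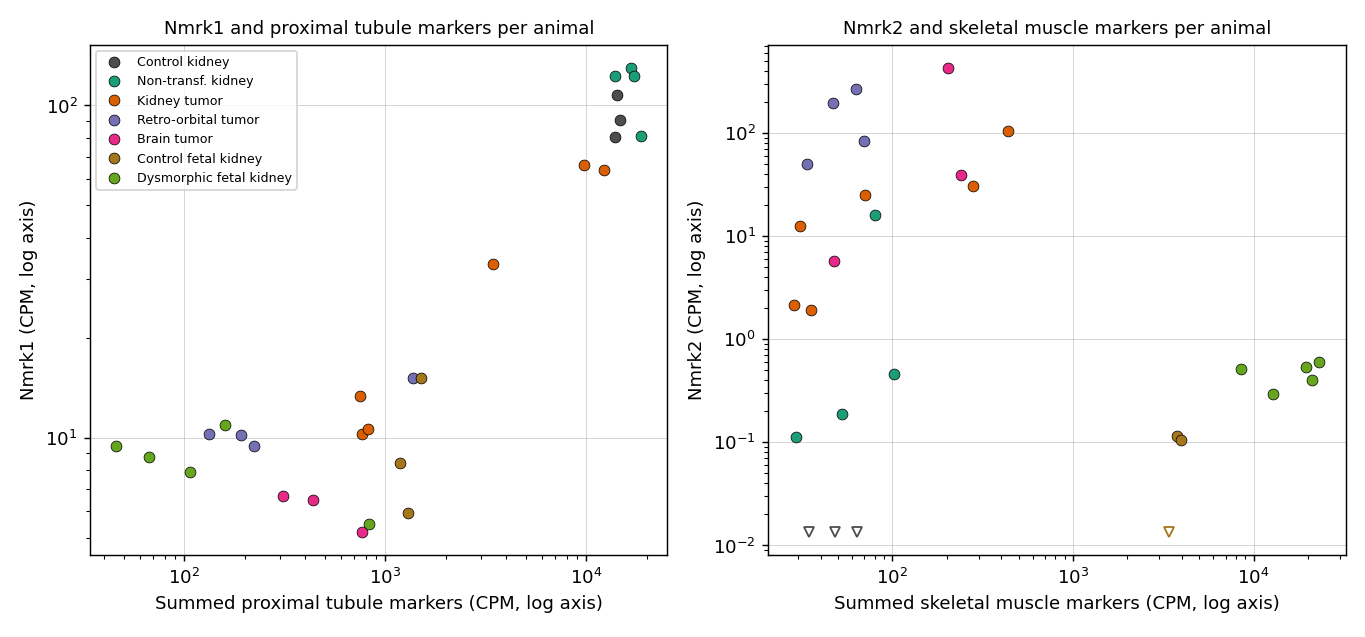
Left, Nmrk1 against the summed level of 10 proximal tubule markers, and right, Nmrk2 against the summed level of 12 skeletal muscle markers, each point a mouse or fetus and all axes CPM on log scales. Nmrk1 and tubule markers were both highest in control and non-transformed kidneys, whereas retro-orbital tumors held 50.7 to 269 CPM of Nmrk2 at muscle sums of 33.8 to 70.0 CPM and dysmorphic fetal kidneys at most 0.60 CPM of Nmrk2 at muscle sums of at least 8536.

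Per kilobase of exon, the kinase that dominated changed with the tissue. Nmrk2 made up at most 0.0207% of the summed Nmrk1 and Nmrk2 level in control kidneys. In kidney tumors of mice 1 to 6 its share was 10.2%, 85.7%, 70.1%, 76.1%, 43.9% and 24.1%, in retro-orbital tumors 90.8%, 97.7%, 97.3% and 94.3%, and in brain tumors 63.5%, 92.3% and 99.4%. Nmrk2 was thus the more abundant kinase transcript in every tumor outside the kidney and in the summed kidney tumors of 3 of 6 mice. Single kidney tumors of a mouse could differ. In mouse 3 a library held 22.6 CPM of Nmrk2 beside 9.95 of Nmrk1, and the other 2.47 beside 11.0. Non-transformed kidneys stood at 0.173%, 20.8%, 0.739% and 0.463%, with mouse 3 apart. In mean CPM per kilobase, the order of the members in control kidneys was Nampt 75.0, Nmrk1 25.1, Nadsyn1 6.04, Naprt 4.54, Qprt 3.42, Nmnat1 3.35, Nmnat3 1.71, Nnmt 0.454, Nmnat2 0.0404 and Nmrk2 0.00169. In retro-orbital tumors Nampt (146) and Nmrk2 (81.0) led, followed by Nadsyn1 (9.34) and Nmrk1 (3.04). The retro-orbital tumor of mouse 5 held more Nmrk2 (145) than Nampt (111). In brain tumors Nampt (115) and Nmrk2 (85.6) also led, but single brain tumors ranged so widely that this order was not that of each sample.

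**Figure D3:**
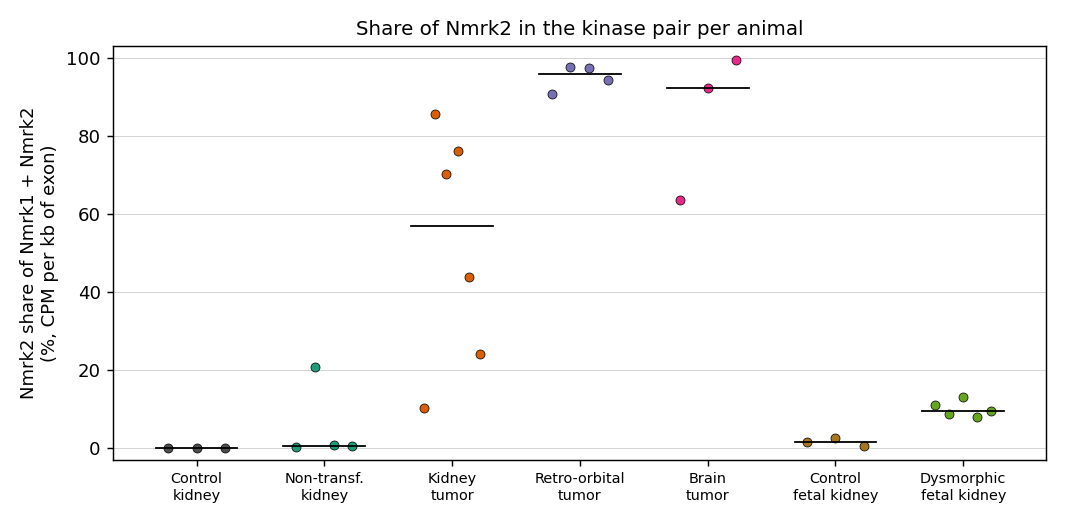
Nmrk2 as a percent of the summed Nmrk1 and Nmrk2 level, both in CPM per kilobase of exon, for each mouse or fetus in the 7 groups, with a bar at the median. The share was at most 0.0207% in control kidneys, 10.2% to 85.7% in kidney tumors and 90.8% to 97.7% in retro-orbital tumors.

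The genes whose levels ordered the samples most like Nmrk2 are given as a description. Over all 28 samples and 16029 genes, Gm14461 (Spearman 0.924), Stac2 (0.920), Ndrg4 (0.919), Trpm1 (0.909) and Cdk15 (0.908) were nearest. Over the 13 tumor samples and 15507 genes the nearest included Ppargc1a (0.934), a coactivator of mitochondrial genes, Mt3 (0.907), Kdr (0.907) and Oca2 (0.879). Among the other members over the tumor samples, Nmnat2 stood at 0.61 and Qprt at -0.643, and Nmrk1 at -0.28. These points share mice and the contrast of kidney with other sites.

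Nampt, which codes for the main salvage enzyme, was the most abundant member per kilobase in every group mean. It was even in adult kidney: control kidneys held 392, 367 and 378 CPM and non-transformed kidneys 371.5, 363, 378 and 329. Kidney tumors of mice 1 to 6 held 376, 371, 479, 486, 395 and 544 CPM and overlapped with both, with a log2 difference from non-transformed kidneys of 0.24 (SE 0.13, adjusted p = 0.215). Retro-orbital tumors held 643, 904, 559 and 843 CPM, all above every kidney tumor. That rise was 0.71 on the log2 scale (SE 0.17) and was called (adjusted p = 0.0166), but not without the retro-orbital tumor of mouse 6 (adjusted p = 0.0576). Brain tumors of mice 1, 2 and 4 held 828, 352 and 567 CPM, across the range of kidney tumors (log2 difference 0.44, SE 0.24, adjusted p = 0.27).

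Qprt, the entry point of quinolinate from tryptophan, differed most in size, of the members, between kidney tumors and both other tumor sites. Control kidneys held 8.84, 9.29 and 8.97 CPM and kidney tumors of mice 1 to 6 held 8.34, 16.6, 15.7, 7.25, 11.0 and 13.7 CPM, so kidney tumors kept it at kidney level. Retro-orbital tumors of mice 2, 3, 5 and 6 held 0.13, 0.04, 1.03 and 0.07 CPM, and brain tumors of mice 1, 2 and 4 held 0.48, 0.24 and 0.06. No tumor outside the kidney reached the lowest kidney tumor, while the other sites overlapped with each other. Relative to kidney tumors the fitted level was 38.5-fold lower in retro-orbital and 45.5-fold lower in brain tumors, a log2 difference of -5.27 for the former (SE 0.96, adjusted p = 0.00594) and -5.51 for the latter (SE 0.73, adjusted p = 0.00685). Both calls held when any animal was left out, but the retro-orbital value was 147-fold without mouse 5 (29.1-fold to 40.3-fold without any other animal) and the brain value 79.8-fold without the brain tumor of mouse 1. With mouse as a block, as these tissues share mice, the brain tumor value was -5.70 but was no longer called (adjusted p = 0.267), in a fit that called 0 of all genes, nor was it on the same paired mice without the block (-5.35, adjusted p = 0.0859). Kidney tumor pairs of a mouse differed in Qprt by up to 8.93 times. Proximal tubule markers were also lower outside the kidney, with a median log2 difference from kidney tumors of -3.58 over the 10 markers in retro-orbital and -4.45 in brain tumors, none of the 10 called, and sums of 133 to 1372 and 311 to 767.5 CPM against 746 to 12200. The retro-orbital tumor of mouse 5 was highest of its group in both, whereas the kidney tumors of mice 2, 3 and 6, with the lowest tubule sums of theirs (769, 816 and 746 CPM), held the most Qprt. The part of tubule cell content in the Qprt differences was not tested.

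Naprt, the entry point of nicotinic acid, was lower in tumors than in kidney. Control kidneys held 10.7, 10.6 and 10.7 CPM and non-transformed kidneys 16.0, 16.1, 14.1 and 11.6, against 4.26, 1.85, 3.66, 7.997, 8.39 and 1.84 in kidney tumors. All kidney tumors lay below all non-transformed kidneys, and the log2 difference of -1.68 (SE 0.45) was called (adjusted p = 0.0295). With mouse as a block it was -1.39 and was not called (adjusted p = 0.105), and it was not called in female mice alone either (adjusted p = 0.105), nor without the kidney tumor of mouse 3 or any of the 4 non-transformed kidneys (adjusted p from 0.0539 to 0.078). Retro-orbital tumors held 1.25, 0.87, 1.95 and 0.61 CPM, lower than kidney tumors by a called log2 difference of -2.02 (SE 0.56, adjusted p = 0.0317). This call was lost in females (adjusted p = 0.0668), on the paired mice without the block (0.0924) and in 5 of 10 fits that each left out an animal (retro-orbital tumors of mice 2, 3 and 6, kidney tumors of mice 4 and 5, adjusted p from 0.057 to 0.105). Brain tumors held 0.14, 1.36 and 0.59 CPM, below the summed kidney tumors of every mouse but not called in the main fit (-2.69, SE 0.85, adjusted p = 0.0766). That difference was called under 3 of the alternative settings other than leaving out an animal. Naprt shares exon bases with Eef1d on the same strand, so part of its counts may be uncertain. As for Nmrk1, the kidney tumors of mice 4 and 5 had both the most Naprt and the most tubule marker RNA.

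Nadsyn1, which completes the route from nicotinic acid and quinolinate, was called in none of the comparisons by the main edgeR fits. Control kidneys held 17.5, 21.2 and 21.2 CPM, kidney tumors 16.5 to 26.5, retro-orbital tumors 36.0, 41.2, 22.4 and 24.0 and brain tumors 21.6, 9.75 and 13.2. Every brain tumor lay below every retro-orbital tumor, with a log2 difference of -1.08 (SE 0.36) that was not called (adjusted p = 0.152) except in the joint fit (-1.05, adjusted p = 0.0339). Dysmorphic kidneys held 5.40 to 14.6 CPM against 8.41, 16.4 and 19.3 in control fetal kidneys, overlapping (-0.89, SE 0.40, adjusted p = 0.261).

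**Figure D4:**
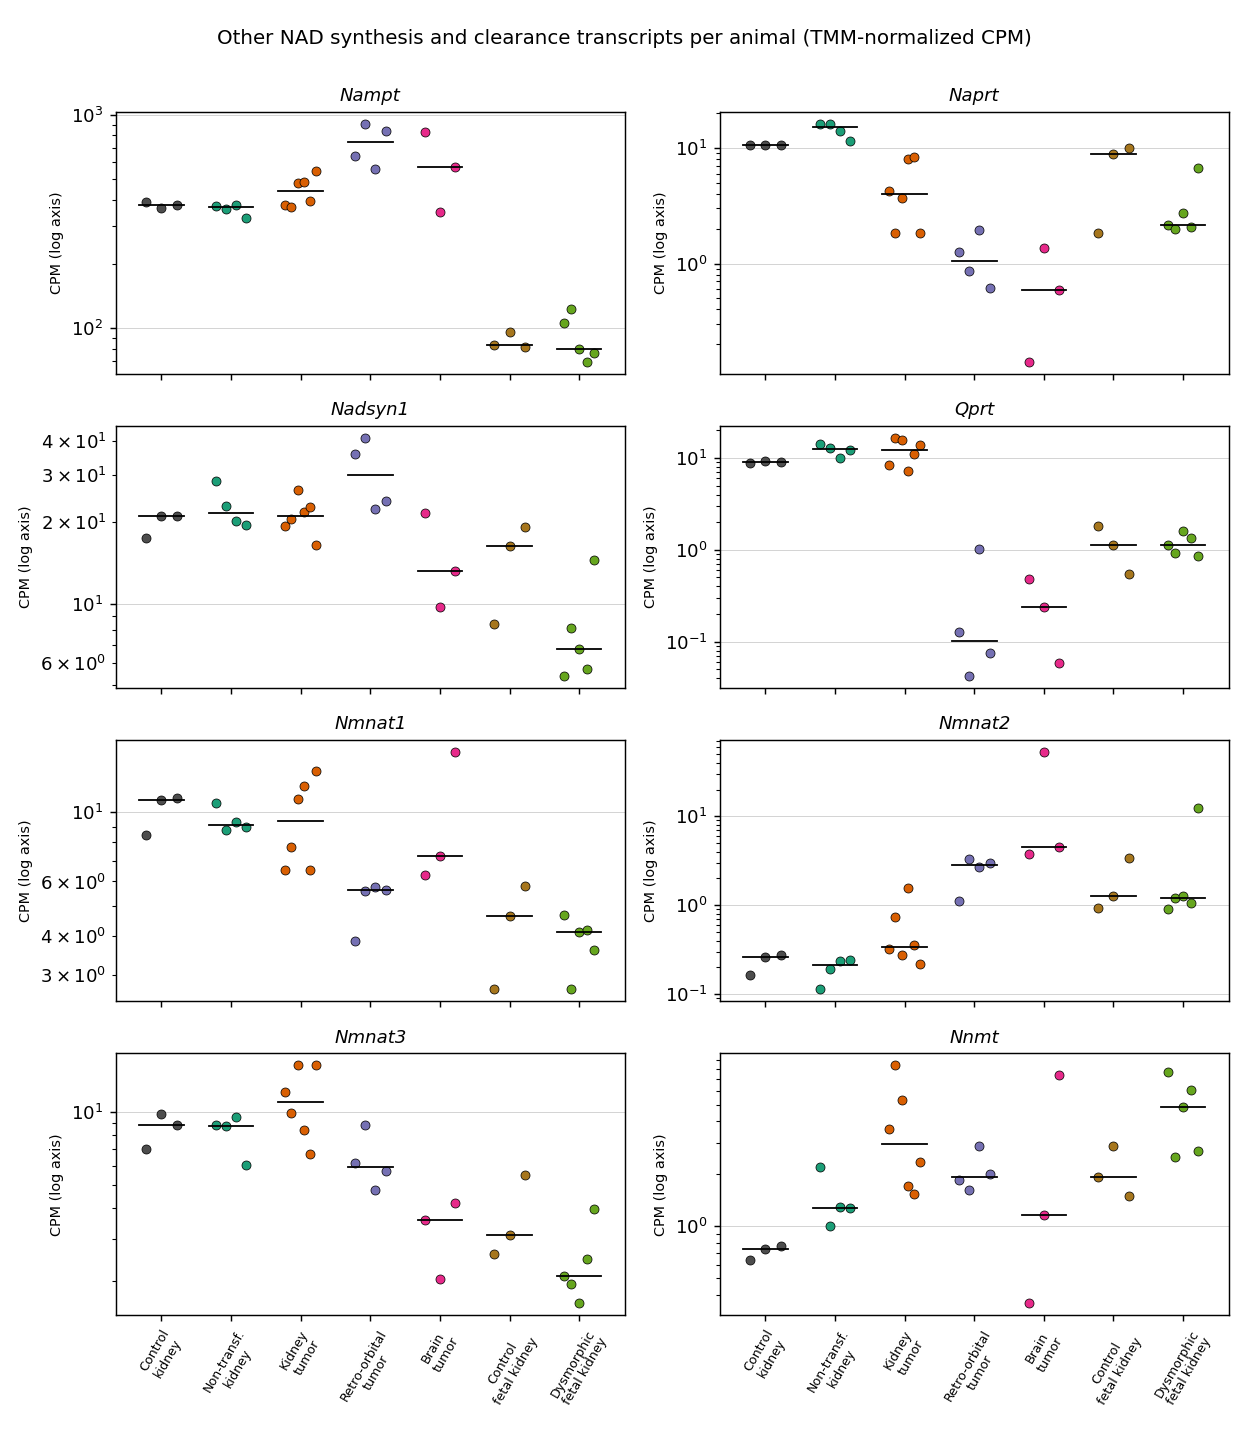
Levels of Nampt, Naprt, Nadsyn1, Qprt, Nmnat1, Nmnat2, Nmnat3 and Nnmt in CPM on log axes for each mouse or fetus in the 7 groups, with a bar at the group median. Qprt of the retro-orbital and brain tumors lay at 0.04 to 1.03 CPM, below the 7.25 to 16.6 CPM of kidney tumors, and Nampt was highest in retro-orbital tumors, at 559 to 904 CPM.

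The genes that adenylate the mononucleotides changed by site and not together. Nmnat1, the nuclear enzyme, stood at 6.54 to 13.6 CPM in kidney tumors and at 3.88, 5.61, 5.77 and 5.65 CPM in retro-orbital tumors, every value of the latter lower, a called difference of -0.90 (SE 0.26, adjusted p = 0.0409). Brain tumors held 6.28, 7.25 and 15.7 CPM of it, from below to above the kidney tumor range. Nmnat3, the mitochondrial enzyme, stood at 6.69 to 15.6 CPM in kidney tumors and at 3.57, 2.05 and 4.21 CPM in brain tumors, a called difference of -1.75 (SE 0.38, adjusted p = 0.0282). Retro-orbital tumors held 4.77 to 8.80 CPM, between both (-0.86, SE 0.29, adjusted p = 0.0635 against kidney tumors). With mouse as a block the brain tumor difference in Nmnat3 was -1.67 and not called (adjusted p = 0.312), nor was the retro-orbital one in Nmnat1 (adjusted p = 0.0693). The Nmnat1 call was also lost with upper quartile factors, without the count filter and on the paired mice without the block (adjusted p = 0.0588, 0.0663 and 0.0615), and in 7 of 10 fits that each left out an animal (retro-orbital tumors of mice 2, 3, 5 and 6, kidney tumors of mice 3, 4 and 6, adjusted p from 0.0748 to 0.126). The Nmnat3 call in brain tumors was lost in females, on the paired mice without the block, and without the brain tumors of mice 1 or 2 or the kidney tumors of mice 1, 3 or 6 (adjusted p from 0.0503 to 0.122).

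Nmnat2, the enzyme that neurons depend on, was scarce in kidney, at 0.16 to 0.27 CPM in controls and 0.22 to 1.55 in kidney tumors. Retro-orbital tumors held 1.11, 3.33, 2.66 and 2.96 CPM, and the log2 difference of 2.10 (SE 0.57) was called (adjusted p = 0.0308, and 0.0539 with mouse as a block). It was not called in females (adjusted p = 0.132), in the joint fit (0.0561) or without the retro-orbital tumors of mice 3, 5 or 6 or the kidney tumors of mice 3 or 5 (0.0525 to 0.0825). Brain tumors of mice 1, 2 and 4 held 3.79, 53.5 and 4.48 CPM, all above every kidney tumor, with a called log2 difference of 5.20 (SE 0.97, adjusted p = 0.0195). Without the brain tumor of mouse 2 it was 2.87 (adjusted p = 0.0574), with mouse as a block 3.71 (adjusted p = 0.344), on the same paired mice without the block 4.61 (adjusted p = 0.152) and in females 5.41 (adjusted p = 0.0942). The 10 brain markers summed to 131, 2002 and 520 CPM in the same brain tumors, so mouse 2 was highest in both. Retro-orbital tumors had brain marker sums of 26.7 to 70.4 CPM against 19.7 to 122 in kidney tumors. The kidney tumor of mouse 4 was highest in its group for both, at 1.55 CPM of Nmnat2 and 122 of brain markers. The part of brain tissue in the Nmnat2 rise was not tested.

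Nnmt, which diverts nicotinamide to methylnicotinamide, stood at 0.64, 0.74 and 0.77 CPM in control kidneys, 2.20, 1.005, 1.29 and 1.27 in non-transformed kidneys and 3.61, 8.43, 5.33, 1.70, 1.53 and 2.33 in kidney tumors. All non-transformed kidneys and all kidney tumors lay above all controls. The fitted log2 difference of kidney tumors from control kidneys was 2.40 (SE 0.61), and that from non-transformed kidneys 1.36 (SE 0.52), which was not called (adjusted p = 0.0965). Retro-orbital tumors held 1.61 to 2.88 CPM and brain tumors 0.36, 1.16 and 7.45. The 7 fibroblast and mesenchyme markers moved with Nnmt in part: 4 of 7 were called higher in kidney tumors than in non-transformed kidneys, beside 12.1% of all genes. Their sum was 376 to 685 CPM in control kidneys, 466.3 to 911 in non-transformed kidneys and 1224 to 2657 in kidney tumors. The kidney tumors of mice 1, 2 and 3 were the highest of their group in both, with marker sums of 2657, 2543 and 2229 CPM, and the brain tumor of mouse 4 was highest in both, with 2360 CPM against 569 and 717. Retro-orbital tumors had sums of 2282 to 4330 CPM at lower mean Nnmt than kidney tumors. In non-transformed kidneys the fibroblast sum was highest in mouse 4 and Nnmt in mouse 1. The sum of 5 adipocyte markers was highest in the sample with the most Nnmt in non-transformed kidneys (576 CPM, mouse 1), kidney tumors (911 CPM, mouse 2) and brain tumors (18.7 CPM, mouse 4). In retro-orbital tumors Nnmt was highest in mouse 5 and the adipocyte sum in mouse 6 (122.5 CPM), and in control kidneys Nnmt was highest in mouse 3 and the adipocyte sum in mouse 1 (155.0 CPM), which had the least Nnmt. The parts of stromal and fat RNA in the Nnmt differences were not tested.

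Of the 10 members, 1 was called between kidney tumors and non-transformed kidneys (Naprt, lower), where 17.1% of all genes tested were called. Between retro-orbital and kidney tumors 5 members were called (Nampt and Nmnat2 higher, Naprt, Nmnat1 and Qprt lower) beside 17.7% of all genes, with a median log2 difference of -0.88 over the members and -0.09 over all genes. Between brain and kidney tumors 3 were called (Nmnat2 higher, Nmnat3 and Qprt lower) beside 8.74%. Without retro-orbital tumor mouse 6 the 5 became 1, and without brain tumor mouse 2 the 3 became 1. Brain against retro-orbital tumors gave no called member in the main edgeR fit, beside 1.73% of all genes, and DESeq2 called 1 beside 13.4%. In that edgeR fit 4 members passed an unadjusted p under 0.05, beside 21.5% of all genes. No member was called between non-transformed and control kidneys, where 4 passed an unadjusted p under 0.05 beside 11.7% of all genes and DESeq2 also called none, beside 2.38%. In that comparison Nmrk2, Naprt, Qprt and Nnmt were higher in every non-transformed kidney than in every control, as were 4.48% of all genes, with log2 differences of 0.45 (SE 0.15) for Naprt, 0.46 (SE 0.15) for Qprt and 1.02 (SE 0.33) for Nnmt. Against control kidneys, kidney tumors had 2 members past the threshold, Nmrk2 and Nnmt, beside 19% of all genes, and nothing is read from that count because the comparison served to choose the set.

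**Figure D5:**
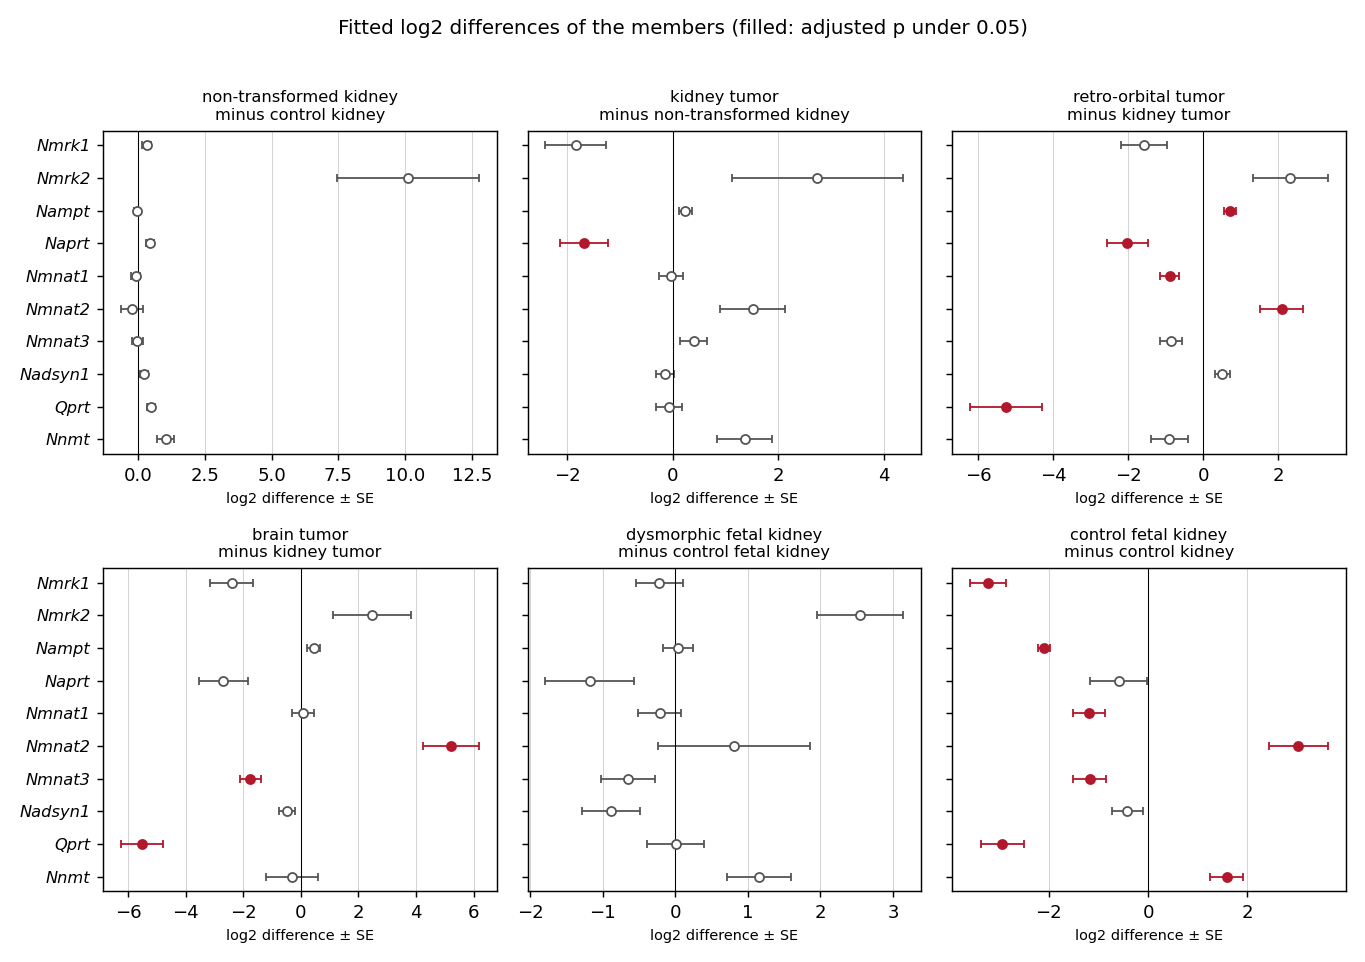
Fitted log2 differences with standard errors for the 10 members in 6 comparisons, filled red where the adjusted p was under 0.05. Qprt differed from kidney tumors by -5.27 in retro-orbital and -5.51 in brain tumors, and 7 of the 9 members tested differed between fetal and adult control kidneys.

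The fetal model had little Nmrk2. Dysmorphic kidneys held 0.54, 0.52, 0.60, 0.41 and 0.29 CPM and control fetal kidneys 0.11, 0.11 and 0.016 CPM, so the groups did not overlap, as was the case in the higher direction for 9.82% of all genes. The log2 difference was 2.55 (SE 0.59), with an adjusted p of 0.064, beside 2.67% of all genes called. It was called by DESeq2 (2.57, adjusted p = 0.000133), with the title prefix of the fetuses as a covariate (2.80, adjusted p = 0.0487) and without fetus 5 (adjusted p = 0.0491). Within the prefixes it was 2.31 for 3 against 2 fetuses and 4.32 for 2 against 1, neither called (adjusted p = 0.172 and 0.725). The highest dysmorphic kidney was still below the lowest tumor. Muscle markers moved with this difference: 10 of 12 were called higher in dysmorphic kidneys, and the groups did not overlap in their sum. The antisense gene Atcayos was called higher as well (log2 difference 2.24, adjusted p = 0.0395). The parts of muscle RNA and of antisense reads in the fetal Nmrk2 difference were not tested.

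None of the other members was called in dysmorphic kidneys, where in edgeR Nmrk2 and Nnmt passed an unadjusted p under 0.05 beside 20.3% of all genes, a share like that of the members, and DESeq2 called 1 member beside 10.8%. Nnmt stood at 7.72, 2.496, 4.87, 6.11 and 2.72 CPM against 1.92, 2.91 and 1.497 in controls (log2 difference 1.16, SE 0.44, adjusted p = 0.192), beside fibroblast and mesenchyme sums of 7723 to 17240 CPM against 4165 to 5699. Dysmorphic kidney 1, with the most Nnmt, also had the highest adipocyte sum of its group, 559 CPM. Naprt stood at 2.17, 1.998, 2.74, 2.05 and 6.75 CPM against 1.82, 8.92 and 10.01, overlapping (-1.17, SE 0.61, adjusted p = 0.33). Nmrk1 stood at 8.72, 10.9, 7.88, 9.45 and 5.49 CPM against 15.1, 8.38 and 5.92, also overlapping (-0.22, SE 0.32, adjusted p = 0.755). Nmnat2 of fetus 5 was 12.3 CPM against 0.91 to 1.26 in the other 4, and that kidney also had the highest brain marker sum of its group, 141 CPM. In the fit of the adult effect (kidney tumor against control) minus the fetal effect, 1 member passed the threshold, Nmrk2, beside 8.94% of all genes, and nothing is read from that count either. The fitted log2 differences of that contrast were -1.30 (SE 0.77) for Nmrk1, -0.02 (SE 0.82) for Naprt and 0.19 (SE 0.26) for Nampt.

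Control kidneys of the fetal and adult models differed in most members. Of 9 tested (Nmrk2 did not pass the filter on low counts), 7 were called, 2 higher and 5 lower in the fetus, where 49% of all genes were called. Nampt was lower at 83.6, 95.5 and 81.4 CPM, a log2 difference of -2.10 (SE 0.12, adjusted p = 6.84e-05). Nmrk1 was lower by -3.22 (SE 0.37, adjusted p = 0.000777) and Qprt by -2.94 (SE 0.43, adjusted p = 0.00213), the latter at 1.80, 1.14 and 0.55 CPM. All 3 genes were thus lower in each control fetus than in each control adult, as were 31.7% of all genes tested. Nmnat1 (-1.19, adjusted p = 0.0203) and Nmnat3 (-1.17, adjusted p = 0.0258) were also lower, whereas Nmnat2 (3.03, adjusted p = 0.00628) and Nnmt (1.58, adjusted p = 0.0079) were higher in the fetus. The calls of Nmnat1 and Nmnat3 were each lost without control mouse 2, control mouse 3 or control fetus 2 (adjusted p from 0.0567 to 0.0852), and that of Nnmt in the joint fit (adjusted p = 0.0942). Age, Cre driver and count table cannot be told apart in this comparison, and proximal tubule markers differed too, with 8 of 10 called lower in the fetus, as did fibroblast and mesenchyme markers, with 6 of 7 called higher.

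Genes around the members were read from lists of the pathway. In a list of 8 genes of the tryptophan route, 1 of 7 tested was called between kidney tumors and non-transformed kidneys, beside 17.1% of all genes. It was Afmid (kynurenine formamidase), with a log2 difference of -1.05 (SE 0.26, adjusted p = 0.0216). The list also holds Acmsd, whose enzyme leads away from quinolinate. The median of the list was -1.96 against -0.02 for all genes. Kmo, the monooxygenase of the route, stood at 381 ± 22.6 CPM in control kidneys (SD, n = 3), 281 ± 41.7 in non-transformed kidneys (n = 4), 63.8 ± 74.8 in kidney tumors (n = 6), 7.97 ± 10.4 in retro-orbital tumors (n = 4) and 3.79 ± 1.93 in brain tumors (n = 3), and spanned 3.03 to 172 CPM within kidney tumors. Haao, the last step before quinolinate, stood at 54.0 ± 4.04 CPM in control kidneys, 15.7 ± 20.3 in kidney tumors and 1.13 ± 1.36 in retro-orbital tumors. The mean of Kmo went down from kidney to kidney tumor to both other sites, and that of Haao from kidney to kidney tumor to retro-orbital tumors. Spreads in kidney tumors were as large as the means. Neither gene was called between kidney tumors and non-transformed kidneys, nor between retro-orbital or brain tumors and kidney tumors. Proximal tubule markers went the same way, with a median of -1.97 for the 10 markers in kidney tumors against non-transformed kidneys, none of them called. Their sums were 746 to 12200 CPM in kidney tumors and 133 to 1372 in retro-orbital tumors. The part of tubule cell content in these differences was not tested. Afmid was lower again in retro-orbital (-1.35, adjusted p = 0.011) and brain tumors (-1.96, adjusted p = 0.02) than in kidney tumors. In control fetal kidneys 6 of 8 of these genes were lower than in control adult kidneys and Tdo2 higher, beside 49% of all genes called in either direction.

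Genes that use or convert NAD were read next. Of the 3 genes for NAD kinases and the transhydrogenase, Nadk2, the mitochondrial NAD kinase, was lower in kidney tumors than in non-transformed kidneys (-0.94, SE 0.24, adjusted p = 0.0252). All 3, Nnt included, were called lower when retro-orbital tumors were set against kidney tumors, with values of -0.93 for Nadk (adjusted p = 0.00175) and -1.02 for Nadk2 (adjusted p = 0.0225), beside 9.45% of all genes called lower and 8.26% higher in that comparison. Of 23 consumers of NAD, 2 were called in kidney tumors against non-transformed kidneys, the deacetylase genes Sirt1 (0.80, SE 0.16, adjusted p = 0.00857) and Sirt2 (0.75, SE 0.20, adjusted p = 0.0293), both higher, beside 17.1% of all genes. In retro-orbital tumors Cd38, the gene of an NAD glycohydrolase, was higher than in kidney tumors (43.7 against 19.8 CPM in the mean, log2 difference 1.11, adjusted p = 0.0159), and Parp10 and Parp16 were lower, beside the same shares of all genes. In brain tumors Sarm1, the gene of an NAD hydrolase of axons, was higher (2.89, SE 0.68, adjusted p = 0.0356), and 1 other of the 23 consumers was called lower. These stand beside 8.74% of all genes called in either direction and the higher brain marker sums given above.

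Methyl donor and oxidase genes, which act before and after NNMT, split. The counts in kidney tumors against non-transformed kidneys that follow stand beside 12.1% of all genes called higher and 5.02% lower. In kidney tumors against non-transformed kidneys, 2 of 7 were called higher, Aox1 (67.4 against 6.35 CPM in the mean, log2 difference 3.35, SE 0.48, adjusted p = 0.00163) and Aox4 (4.34, SE 0.97, adjusted p = 0.0148), both aldehyde oxidases. Another 2 were called lower, Ahcy (-1.50, SE 0.44, adjusted p = 0.0402) and Mat2b (-0.58, SE 0.15, adjusted p = 0.0265), of the S-adenosylmethionine cycle. Of the 4 regulators of energy metabolism, Ppargc1a was higher in kidney tumors (0.88, SE 0.26, adjusted p = 0.0444) and Ppara (-1.30, SE 0.27, adjusted p = 0.0106) and Esrrg (-1.01, SE 0.30, adjusted p = 0.0443) were lower. Of 12 clock genes, some of which control Nampt in a daily rhythm, Cry1 was higher and Per2 and Tef were lower, and the time of day of collection was not given. Of 8 genes that handle or carry precursors, 0 were called in kidney tumors against non-transformed kidneys with edgeR, and Slc25a51 alone passed an unadjusted p under 0.05. In retro-orbital against kidney tumors, Slc29a1, a nucleoside transporter, was higher (0.93, adjusted p = 0.0302), and Nt5e, whose product CD73 releases nicotinamide riboside outside the cell (-3.03, SE 0.90, adjusted p = 0.0421), and Slc25a51, the mitochondrial NAD carrier (-0.85, SE 0.14, adjusted p = 0.00352), were lower, beside 17.7% of all genes called in either direction. In dysmorphic fetal kidneys Nt5e was higher (1.83, SE 0.31, adjusted p = 0.035) and 1 other gene of the precursor list was called lower. The NAD kinase gene Nadk2 was also lower (-0.76, SE 0.15, adjusted p = 0.0436), beside 2.67% of all genes called.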

How the data were processed

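For each of 36 libraries the authors deposited unnormalized counts of every gene, in separate Sglt2-Cre and Pax8-Cre tables. The submitters' processing notes name FastQC, MultiQC, Bowtie2, STAR 2.5.2a, GRCm38 and mm10. The counter and its use of strand were not given in the sources used here. Of 53379 gene identifiers, 53274 matched GENCODE M21 with the version ignored, and 15012 genes had no count. Between 79.04% and 84.33% of counts from 1 to 20 were even, as when both mates of a pair are counted, so halved counts were tried. Libraries of the same mouse and group were summed. Each fit used only the groups compared, in edgeR 4.0.16 (R 4.3.3) with TMM factors, filterByExpr and the quasi-likelihood F-test, and Benjamini-Hochberg adjusted p-values over all genes tested were called under 0.05. SE is the size of the log2 difference divided by the square root of F. The code was tested on simulated data.

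Members and gene lists were chosen with earlier results of these data known. Members and list genes could be named, as could the 5 genes nearest to Nmrk2 by Spearman correlation of log2 CPM among genes with a mean of at least 1 CPM; 1 of these is not reported here. Alternatives were RLE and upper quartile factors, no count filter, DESeq2 1.42.0, limma-voom (limma 3.58.1) with animal as a random effect, halved counts, a joint fit, sex or title prefix as a covariate, a block and leaving out each animal. Female-only fits, paired animals without the block, and fits within a title prefix were added after the data were seen. The promoter letters marked in capitals were also added later, after the sequences were seen. Pairing comes from tissues of the same mouse. Their deviations from group means correlated at -0.045 to 0.163 between kidney tumor and non-transformed kidney, 0.253 to 0.325 for retro-orbital and kidney tumors and -0.075 to -0.057 for brain and kidney tumors. Sex was read from Y-linked RNA (over 50 CPM called male): all 3 adult control mice were female, as were 4 of 6 tumor mice, and 3 of 5 dysmorphic and 1 of 3 control fetuses were male.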

Additional observations from a re-analysis of the deposited data

Results flagged for a closer look

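Within groups of 4 to 10 animals, 40 member and group combinations were tested for a sample far from the rest, 8 were found, and chance alone gives about 1 in 20, or 2. Nmrk2 of the kidney tumor of mouse 4 stood at 105.9 CPM against at most 30.8 in the other 5 mice. Nmrk2 of the non-transformed kidney of mouse 3 stood at 16.23 CPM against at most 0.46 in the other 3. Nmrk1 of the non-transformed kidney of mouse 5 was low at 80.78 CPM. The retro-orbital tumor of mouse 5 was high in Nmrk1 at 15.1 CPM and in Qprt at 1.028 CPM, and it also had the highest proximal tubule marker sum of its group, 1372 CPM. Nmnat1 of the retro-orbital tumor of mouse 2 was low at 3.875 CPM. Dysmorphic fetal kidney 5 was high in Naprt at 6.753 CPM and in Nmnat2 at 12.34 CPM, and had the highest brain marker sum of its group, 141 CPM.

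The fusion effect on Nmrk2, kidney tumor against control kidney in the adult model minus dysmorphic against control kidney in the fetal model, was 10.359 on the log2 scale. This contrast holds the comparison of kidney tumors with control kidneys that served to choose the set, so it is given as a description, and its size depends on the prior count because the adult controls were at or below 3 counts.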

How the results depend on the processing

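Counts of called members moved as follows, and where no value is given under a setting the count stayed within 1.5 times. Kidney tumor minus control kidney went from 2 to 4 under limma-voom and to 1 to 2 when a mouse was left out. Nothing is read from these counts, because that comparison served to choose the set. Kidney tumor minus non-transformed kidney went from 1 to 2 under RLE, upper quartile, halved counts, the joint fit and limma-voom, to 4 under DESeq2, to 0 with mouse as a replicate block and in females only, and to 0 to 2 when a mouse was left out. Retro-orbital minus kidney tumor went from 5 to 8 under limma-voom, to 3 with the replicate block and in females only, and to 1 to 5 when a mouse was left out. Brain minus kidney tumor went from 3 to 5 in the joint fit, to 0 with the replicate block and to 0 on the same paired mice without it, to 1 in females only, and to 1 to 3 when a mouse was left out. Brain minus retro-orbital tumor went from 0 to 1 under DESeq2 and 2 in the joint fit. Dysmorphic minus control fetal kidney went from 0 to 1 under DESeq2, halved counts, the title prefix covariate and without fetus 5. The adult minus fetal effect, which holds the choosing comparison and from which nothing is read either, went from 1 to 0 under limma-voom and to 2 without fetus 5. The cause of these moves was not tested, beyond the fewer animals in the fits that drop some.

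Nmrk2 in brain minus kidney tumors reversed from 2.47 to -0.36 (edgeR adjusted p = 0.901) without the brain tumor of mouse 4 and ranged up to 3.48 when other mice were left out. Among the member differences recomputed here, which were those called, not overlapping or of at least 1 on the log2 scale, no other reversed. Nmrk2 in retro-orbital against kidney tumors (2.33, not called) was called under limma-voom (3.83, adjusted p = 0.0025), on the paired mice without the block (3.09, adjusted p = 0.0473) and without the kidney tumor of mouse 4 (3.37, adjusted p = 0.0374). Among the same differences, the block changed no other call beyond those given with it.

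Over all genes, calls for kidney tumor minus control kidney went from 4474 to 7153 under DESeq2 and 7446 under limma-voom, and for kidney tumor minus non-transformed kidney from 3755 to 5900, 6484 and, with the block, 847, with 1655 on the same mice unblocked and 1213 in females. Non-transformed minus control kidney went from 2 to 575 under DESeq2, retro-orbital minus kidney tumor from 3919 to 6059, and brain minus kidney tumor from 2044 to 5071, 6548 in the joint fit and 0 with the block (2870 at an unadjusted p under 0.05). Brain minus retro-orbital tumor went from 364 to 3053 under DESeq2 and 3816 in the joint fit, dysmorphic minus control fetal kidney from 605 to 2597 under DESeq2 and 5 with sex as a covariate, and the adult minus fetal effect from 2185 to 3650. The fewest under any setting other than leaving out an animal were 175 for brain minus retro-orbital tumor and 1363 for the adult minus fetal effect. When each animal was left out in turn, the counts over all genes ranged from 1163 to 5856 for kidney tumor minus control kidney (lowest without control mouse 2), 1712 to 5522 against non-transformed kidney (lowest without non-transformed kidney 1), 0 to 10 for non-transformed minus control kidney (0 without any control mouse), 2095 to 4089 for retro-orbital minus kidney tumor (lowest without retro-orbital mouse 2), 857 to 2075 for brain minus kidney tumor (lowest without kidney tumor mouse 1), 1 to 1316 for brain minus retro-orbital tumor (1 without retro-orbital mouse 2), 0 to 1247 for dysmorphic minus control fetal kidney (0 without dysmorphic fetus 1, 3 or 4 or any control fetus), 7973 to 11654 for fetal minus adult control kidney and 956 to 2954 for the adult minus fetal effect (lowest without control mouse 2). Limma-voom could not be fitted for brain against retro-orbital tumors and does not apply to the fetuses. Depth limited Nmrk2 in control kidneys, at or below 3 counts per mouse.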
